A study of Homo sapiens with 6 samples.

Results

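Metallothioneins are small, cysteine-rich proteins that bind zinc, copper and cadmium, and their genes are among the standard reporters of free zinc in a cell. Zinc bound to MTF1, a zinc-finger transcription factor, lets it occupy metal response elements in metallothionein promoters, and the importers SLC39A8 (ZIP8) and SLC39A14 (ZIP14) carry zinc, manganese and iron across membranes into the cytosol. In liver cells, cytokines of the interleukin-6 family are known to raise metallothioneins and SLC39A14 as part of the acute phase response. The genes described here are the metallothioneins MT1A, MT1E, MT1F, MT1G, MT1M, MT1X and MT2A, their regulator MTF1, and SLC39A8 and SLC39A14, 10 genes chosen by name.

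They were measured in IMR90, a line of primary human lung fibroblasts, on gene-level Affymetrix arrays. The control group was 3 untreated samples. The treated group was 3 samples given recombinant human oncostatin M once at 10 ng/mL. Oncostatin M belongs to the same cytokine family and signals through JAK kinases and STAT3. The labels give no length of treatment. They also do not say whether replicates came from separate cultures, so the spread that p-values rest on may be technical. Each gene is read on its brightest probe set by mean of the 6 arrays, among probe sets that a gene table of the platform assigns to exactly 1 symbol. Of the 10 genes, 9 had such a probe set among 18417 genes tested, and MT1A is not analysed here. Levels are log2 values normalised by the authors, given as mean ± SD over 3 arrays. Changes are differences of log2 means, the treated mean less the control mean, with a standard error (SE) and a 95% confidence interval from a limma model fitted over all genes, and a gene was called at an adjusted p under 0.05 (Benjamini-Hochberg). As a reference for low signal, the mean levels of 408 genes that fibroblasts are not known to use were taken, those of olfactory receptors and of keratin-associated proteins. A level at or below their percentile of 95, which was 6.74 in control and 6.77 after oncostatin M, is described as within the range of silent genes.

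The labelled cell type and treatment were checked first. All 10 fibroblast markers lay above the range of silent genes, while 7 of 7 epithelial, 6 of 6 leukocyte and 3 of 5 endothelial markers lay within it in both groups. SOCS3, which STAT3 induces and which in turn restrains JAK kinases, read 7.54, 7.62 and 7.59 in the controls and 9.59, 9.70 and 9.63 after oncostatin M. Array oncostatin M 1 stood apart, with a root mean square deviation from its group mean of 0.169 over all genes against 0.084 to 0.116 on the other 5 arrays, so values without it are given where they move by over 1.5 times or change a call.

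The promoters of 4 of the 10 genes were used here, from RefSeq sequences (GRCh38.p14). The promoter of SLC39A14 was not looked up, because its chromosome was left out of the search. The metallothionein members form a block on chromosome 16 of that annotation, where all 9 protein-coding genes from MT2A to MT1X are metallothioneins. The 250 bases upstream of the starts of MT2A and MT1X are shown because they carry the sites through which zinc is known to act on these genes. Capitals mark every match to the metal response element core, TGCACNC or TGCGCNC on either strand. MT2A lies at chr16:56608334-56608583 and MT1X at chr16:56682220-56682469, both on the plus strand.
MT2A: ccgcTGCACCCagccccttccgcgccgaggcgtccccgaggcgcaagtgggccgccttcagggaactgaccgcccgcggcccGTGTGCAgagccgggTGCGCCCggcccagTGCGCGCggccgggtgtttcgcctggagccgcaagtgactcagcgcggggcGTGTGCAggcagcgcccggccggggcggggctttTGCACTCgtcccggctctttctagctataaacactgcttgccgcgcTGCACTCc
MT1X: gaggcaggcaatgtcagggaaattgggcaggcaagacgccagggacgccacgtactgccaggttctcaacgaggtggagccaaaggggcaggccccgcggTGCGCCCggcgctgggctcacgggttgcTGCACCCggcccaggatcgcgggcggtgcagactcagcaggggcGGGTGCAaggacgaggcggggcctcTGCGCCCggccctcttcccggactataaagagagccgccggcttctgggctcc

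The MT2A window held 7 matches and the MT1X window 4. Of 35116 promoter windows of this length, 24.8% held at least 1 match, 0.37% held at least 4 and 0.0313% held at least 7. The MT2A window also held 1 AP-1 site (TGACTCA, either strand; in 4.2% of windows) and 1 STAT-type site (TTCNNNGAA, either strand; in 6.57%), neither overlapping a metal response element match, and the MT1X window held neither. The MTF1 window held none of these motifs, and of 3 windows listed for SLC39A8 1 held a single metal response element match. A match is a description of the letters, not a site shown to be bound.

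Metallothionein transcripts differed little between untreated and oncostatin M-treated fibroblasts. None of the 6 measured metallothionein members passed the threshold in limma, none had an unadjusted p under 0.05, and their changes ran from -0.036 for MT1E to 0.13 for MT1F. Adding MTF1, SLC39A8 and SLC39A14, 0 of 9 genes passed the threshold, against 3.42% of all genes tested (1.72% higher and 1.7% lower), and 1 of 9 (SLC39A14, lower) had an unadjusted p under 0.05, against 11.6%. A share of 3.42% of 9 genes is less than 1 gene, so the count of 0 does not set the 9 apart from other genes. The median change of the 9 was 0.056, against 0.00057 over all genes. In bulk RNA, a change in some cells and a smaller change in all of them cannot be told apart.

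**Figure D1:**
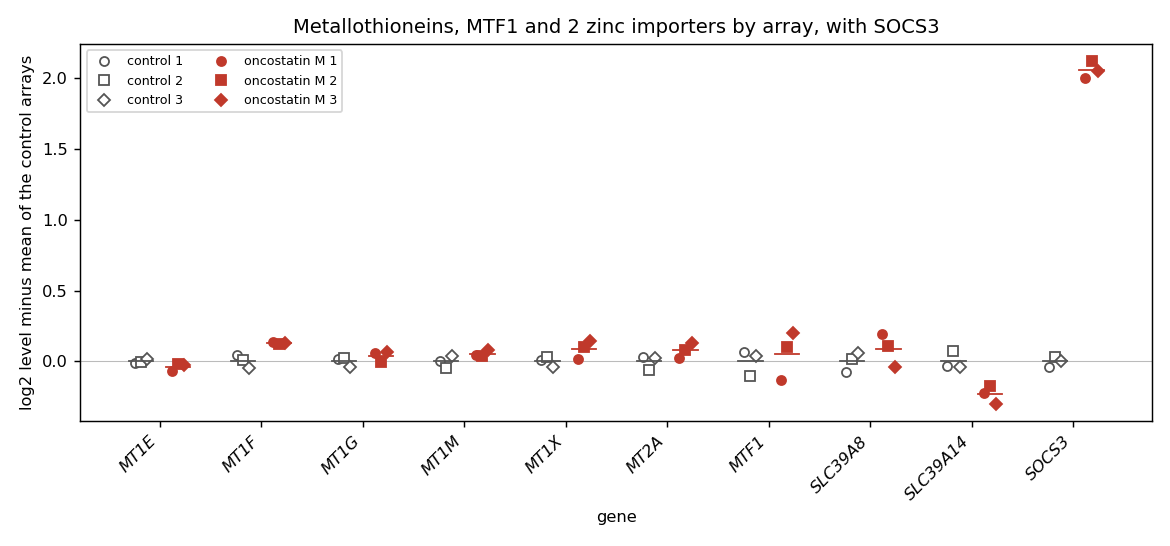
Level of each gene on each array, as log2 minus the mean of that gene's 3 control arrays, for the 9 measured genes and for SOCS3 as a treated-sample reference. Open grey symbols are control arrays, filled red symbols are oncostatin M arrays, shapes mark the replicate number and short lines are group means. The 9 genes stay between -0.23 and 0.13 in mean change, while SOCS3 lies 2.06 above its control mean.

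MT2A, the main metallothionein of most human cells, was among the brightest genes on these arrays. Its control mean ranked at the percentile of 99.99 of all genes tested. It read 13.56, 13.46 and 13.55 in the controls and 13.55, 13.60 and 13.65 after oncostatin M. The groups overlapped, since oncostatin M 1 lay below 2 control arrays. The change was 0.078 (SE 0.070, 95% interval -0.083 to 0.24, limma adjusted p = 0.852). Its other probe sets gave changes of 0.053 and 0.058, also with overlapping groups. Brightness this close to the top of an array's range can compress differences, and its part in the result was not tested.

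MT1X, the other metallothionein whose promoter is shown, read 9.65, 9.68 and 9.61 in the controls and 9.66, 9.75 and 9.80 after oncostatin M. Arrays 2 and 3 of the treated group lay above every control, and oncostatin M 1 lay within the control range. The change was 0.088 (SE 0.071, 95% interval -0.074 to 0.25, adjusted p = 0.814). Without oncostatin M 1 it was 0.12 and did not pass (adjusted p = 0.498).

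MT1F gave the largest change among the metallothionein members. It read 9.48, 9.45 and 9.39 in the controls and 9.58, 9.57 and 9.57 after oncostatin M. The groups did not overlap, and the treated arrays lay within 0.01 of each other. The change was 0.13 (SE 0.066, 95% interval -0.023 to 0.28, adjusted p = 0.564), which is 1.09-fold. MT1E went the other way. It read 10.97, 10.97 and 10.99 in the controls and 10.91, 10.96 and 10.95 after oncostatin M, so that every treated array lay just below every control. The change of MT1E was -0.036 (SE 0.065, 95% interval -0.18 to 0.11, adjusted p = 0.963), and -0.021 without oncostatin M 1.

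MT1G and MT1M showed overlapping groups. MT1G read 11.48, 11.49 and 11.42 in the controls and 11.52, 11.46 and 11.53 after oncostatin M, a change of 0.040 (SE 0.067, adjusted p = 0.957). MT1M, within the range of silent genes in both groups, read 5.923, 5.875 and 5.960 in the controls and 5.967, 5.955 and 6.003 after oncostatin M. Its change was 0.055 (SE 0.067, adjusted p = 0.922), and at that level a small change in transcript could go unseen.

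The spread among replicates of these genes was small. Control SDs ran from 0.013 for MT1E to 0.051 for MT2A, and 96.4% of genes tested had a larger SE than the median of 0.067 for the metallothionein members. Limma draws each SE toward a value estimated from all genes, so the SEs and intervals do not measure replicate spread alone. MT1E, with SDs of 0.013 in control and 0.026 after oncostatin M, had an SE of 0.065. Over these 6 genes the 95% intervals, which are not adjusted for the number of genes, reached no lower than -0.18 (1.14-fold lower) and no higher than 0.28 (1.22-fold higher). Averaged over the 6 genes, each centred on its own mean, the arrays read -0.014, -0.038 and -0.038 in the controls and 0.0058, 0.024 and 0.059 after oncostatin M. On the deposited values this mean profile was thus higher on every treated array, with a total range over the 6 arrays of 0.097. The medians of all probe sets read 6.587, 6.605 and 6.537 in the controls and 6.663, 6.536 and 6.561 after oncostatin M. These medians span more than the profile does, and the profile was not computed after median centring. The genes share near-identical sequence, so probes can bind RNA of a relative, and the probe sequences were not used here. Values of single metallothionein genes are uncertain for that reason, and the 6 genes are not 6 independent measurements.

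The rest of the family was read on the same arrays. Of 14 other metallothionein genes and pseudogenes listed, 9 were measured and none passed the threshold (limma). All 9 lay above 0, with a median change of 0.067, and 1 had an unadjusted p under 0.05, against 11.6% of all genes. That gene was MT1HL1, a copy that resembles MT1H, at 0.17 (SE 0.070, adjusted p = 0.387), with groups that did not overlap. MT1H differed by 0.11 (SE 0.070, adjusted p = 0.719). Over the 15 measured genes of the family 14 lay above 0, against 9252 of 18417 among all genes, and their largest change was 0.17. These 15 are not independent measurements either, since probes can bind RNA of a relative, so the count was not tested. MT3, the brain-enriched form, had the widest interval, from -0.28 to 0.47.

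**Figure D2:**
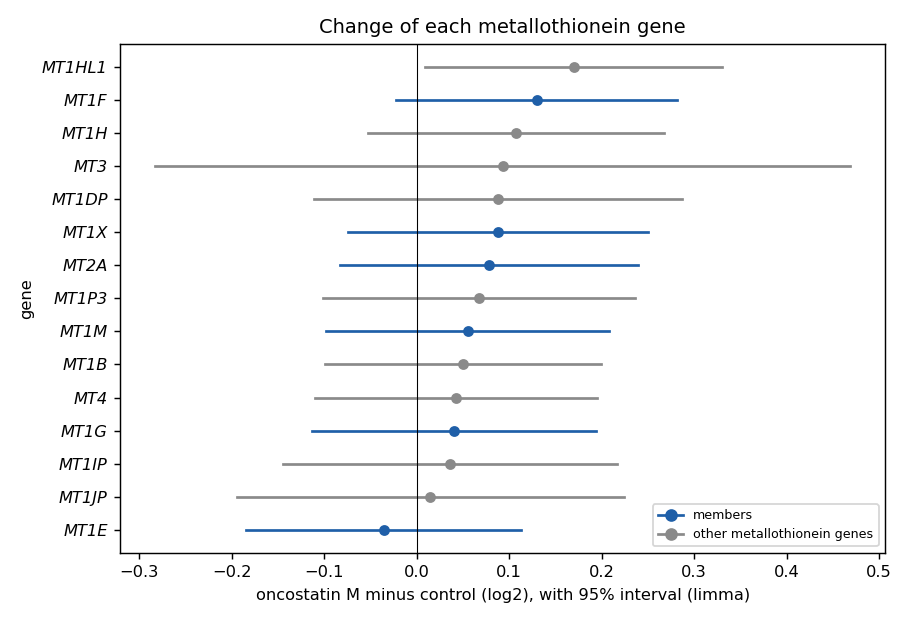
Change of each of the 15 measured metallothionein genes as a log2 difference, oncostatin M minus control, with its 95% interval from limma. Blue marks the 6 members and grey the other 9 genes. All but MT1E lie above 0, none reaches 0.2, and the interval of MT1HL1 alone lies wholly above 0, before any adjustment for the number of genes.

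MTF1, the factor that links zinc to metallothionein transcription, did not differ beyond its spread. It read 8.36, 8.18 and 8.33 in the controls and 8.16, 8.39 and 8.49 after oncostatin M. The lowest of the 6 values was that of oncostatin M 1. The change was 0.056 (SE 0.10, 95% interval -0.18 to 0.29, adjusted p = 0.963). It was 0.15 without oncostatin M 1 and -0.015 without oncostatin M 3, so its sign rests on single arrays.

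Of the importers, SLC39A14 was lower on every treated array and SLC39A8 was not measurably different. SLC39A14 read 9.50, 9.60 and 9.50 in the controls and 9.31, 9.36 and 9.23 after oncostatin M, and the groups did not overlap. Its mean went from 9.53 ± 0.06 to 9.30 ± 0.06, a change of -0.23 (SE 0.073, 95% interval -0.40 to -0.063), or 1.17-fold lower. That difference did not pass the threshold (unadjusted p = 0.013, limma adjusted p = 0.194). With array weights estimated by limma, under which 6.93% of all genes were called, the change was -0.25 and passed (adjusted p = 0.043). That fit gave oncostatin M 3, the array with the lowest SLC39A14 value, a weight of 3.22 and oncostatin M 1 a weight of 0.226. Over the 16 alternatives the adjusted p of SLC39A14 ran from 0.043 to 0.503, and no fit that left out 1 array called it.

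SLC39A8 was within the range of silent genes in both groups. It read 5.26, 5.34 and 5.39 in the controls and 5.52, 5.44 and 5.29 after oncostatin M. The highest value was that of oncostatin M 1, and oncostatin M 3 lay within the control range. The change was 0.088 (SE 0.084, 95% interval -0.10 to 0.28, adjusted p = 0.867), and 0.036 without oncostatin M 1 (adjusted p = 0.911).

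The control and treated arrays were fully separated for 3 of the 9 genes, against 18% of all genes tested. These were MT1F, higher (7.43% of all genes), and MT1E and SLC39A14, lower (10.6%). Without oncostatin M 1 the count was 6 of 9, against 31.6% of all genes in that smaller design. With 3 arrays against 3, an exact permutation test of 1 gene cannot give a two-sided p below 0.1.

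The wider set of zinc transporters gave both directions. Of the 12 other importers of the SLC39 family, 1 rose and none fell at the threshold, against 1.72% higher and 1.7% lower over all genes. With so few genes, 1 call does not set the list apart. The groups did not overlap for 6 of the 12, against 18% of all genes. The median change was 0.0019, and -0.028 without oncostatin M 1. SLC39A6 (ZIP6), an importer described as a STAT3 target in zebrafish development, rose. It read 10.45, 10.33 and 10.35 in the controls and 10.78, 10.90 and 10.77 after oncostatin M, with no overlap. The change was 0.44 (SE 0.075, 95% interval 0.27 to 0.61, adjusted p = 0.0169), or 1.36-fold. It no longer passed when control 1 (adjusted p = 0.061), control 2 (0.0891), control 3 (0.0847) or oncostatin M 2 (0.0747) was left out, while the change stayed between 0.40 and 0.47.

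Among these 12 importers, SLC39A10, SLC39A13 and SLC39A1 came next in size, and are named after their values were seen. SLC39A10 (ZIP10), which forms complexes with ZIP6 and is repressed by MTF1 when zinc is high, differed by 0.31 (SE 0.085, adjusted p = 0.12). It was called without oncostatin M 1, at 0.39 (adjusted p = 0.0196), and also with array weights (0.00428), quantile normalization (0.0269) or a trended, robust variance prior (0.0494). SLC39A13 (ZIP13), which releases zinc from intracellular vesicles in connective tissue cells, differed by -0.27 (SE 0.077, adjusted p = 0.146). It was called lower with array weights, at -0.28 (adjusted p = 0.0215), and with the trended, robust prior (0.0484). SLC39A1 (ZIP1), a plasma membrane importer, differed by 0.22 (SE 0.076, adjusted p = 0.248). The groups of each of these 3 genes did not overlap, as for 18% of all genes tested.

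Of 10 exporters of the SLC30 family none passed the threshold in limma, and the median change was 0.046. An unadjusted p under 0.05 was found for 1 of the 10, against 11.6% of all genes. Groups did not overlap for 1 of the 10, against 18% of all genes. SLC30A1 (ZnT1), the exporter of the plasma membrane and itself a target of MTF1, read 8.31, 8.28 and 8.44 in the controls and 8.48, 8.69 and 8.75 after oncostatin M. The groups did not overlap, and the treated arrays differed among themselves by more than the controls did. The change was 0.30 (SE 0.092, 95% interval 0.086 to 0.51, adjusted p = 0.18). Without oncostatin M 1, its lowest treated array, it was 0.38 and passed (adjusted p = 0.0343). SLC30A2, within the range of silent genes, differed by 0.14 (SE 0.12, adjusted p = 0.847), and by 0.032 without oncostatin M 1.

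**Figure D3:**
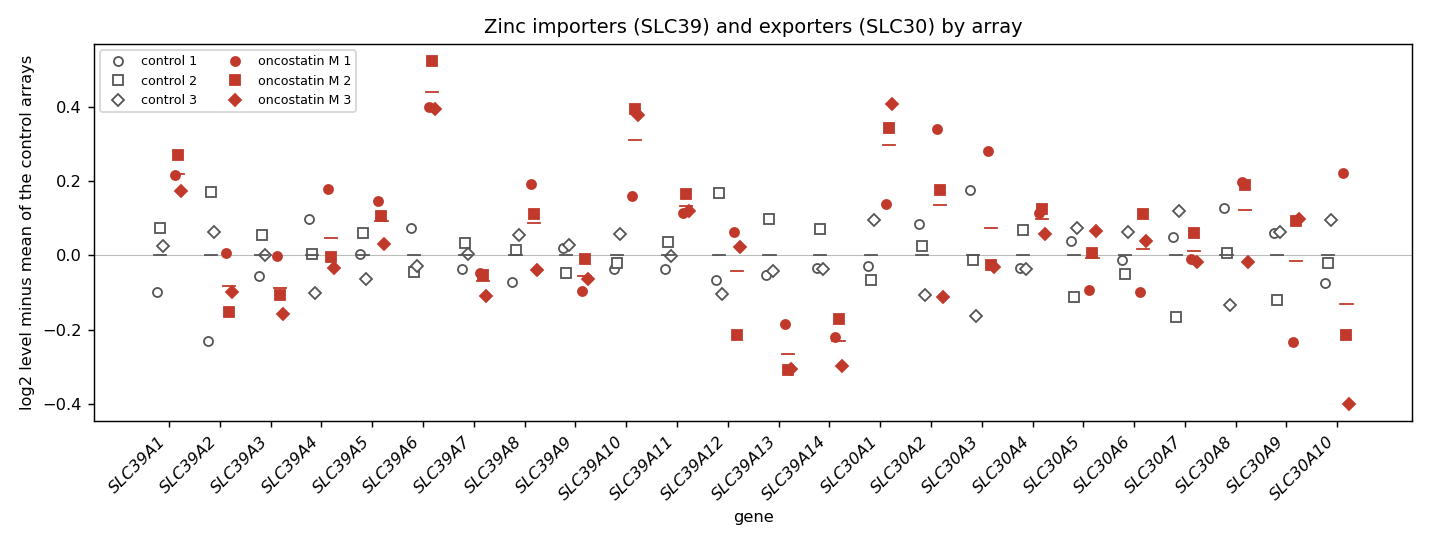
Level of each of the 14 SLC39 importers and 10 SLC30 exporters on each array, as log2 minus the mean of that gene's 3 control arrays. Open grey symbols are control arrays, filled red symbols oncostatin M arrays, and short lines group means. SLC39A6 lies 0.44 above its controls and passed the threshold, while SLC39A14 at -0.23 and SLC30A1 at 0.30 are separated from their controls and did not.

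Among 7 genes outside the metallothioneins that are known as direct or indirect targets of MTF1, 1 rose and none fell at the threshold. Over all genes tested 3.42% were called. The median change of the 7 was 0.30. The list includes SLC39A10, which MTF1 represses when zinc is high, so its counts and median mix targets of opposite direction. GCLC, the catalytic subunit of the enzyme that begins glutathione synthesis and also a target of NRF2, was the one called. It read 9.43, 9.39 and 9.46 in the controls and 10.06, 10.16 and 10.02 after oncostatin M. The change was 0.66 (SE 0.072, 95% interval 0.49 to 0.82, adjusted p = 0.00215), or 1.58-fold, and it was called in each of the 6 fits that left out 1 array. Without oncostatin M 1 the count rose to 4 of 7, against 3.97% of all genes in that fit. The genes added were SLC30A1, SLC39A10 and the iron exporter SLC40A1 (0.48, adjusted p = 0.00854). With all arrays SLC40A1 differed by 0.40 (SE 0.089, adjusted p = 0.0548), within the range of silent genes in both groups. The other 3 genes were the selenoproteins SELENOW (-0.17) and SELENOH (-0.14), lower on every treated array, and the growth factor PGF (0.080), within the range of silent genes, and none of them passed. The whole list thus ran from -0.17 to 0.66, a range that takes in that of the metallothionein members, and the difference between the lists was not tested.

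Of 20 measured genes of iron, copper and manganese handling, none passed the threshold in limma, 6 had an unadjusted p under 0.05 (against 11.6% of all genes), and the median change was 0.11. STEAP2, a metalloreductase, differed by 0.46 (SE 0.16, adjusted p = 0.245), and 2 genes, STEAP2 and SLC40A1, were called without oncostatin M 1. Of 8 genes of heat shock and metal stress, HMOX1 alone rose at the threshold and none fell, against 3.42% of all genes called. The median change of the 8 was -0.068. HMOX1, the haem oxygenase that heavy metals and oxidants induce, read 7.06, 7.44 and 7.38 in the controls and 8.04, 8.29 and 8.14 after oncostatin M. Its change was 0.87 (SE 0.12, adjusted p = 0.0053), or 1.82-fold, and it was called whichever array was left out. Glucocorticoids are a further inducer of metallothioneins, and of 7 measured genes that respond to them none passed in limma (1 at an unadjusted p under 0.05, median -0.036). KLF9 differed by 0.21 (SE 0.087, adjusted p = 0.405; 0.13 without oncostatin M 1) and SGK1 by 0.15 (SE 0.069, adjusted p = 0.474).

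**Figure D4:**
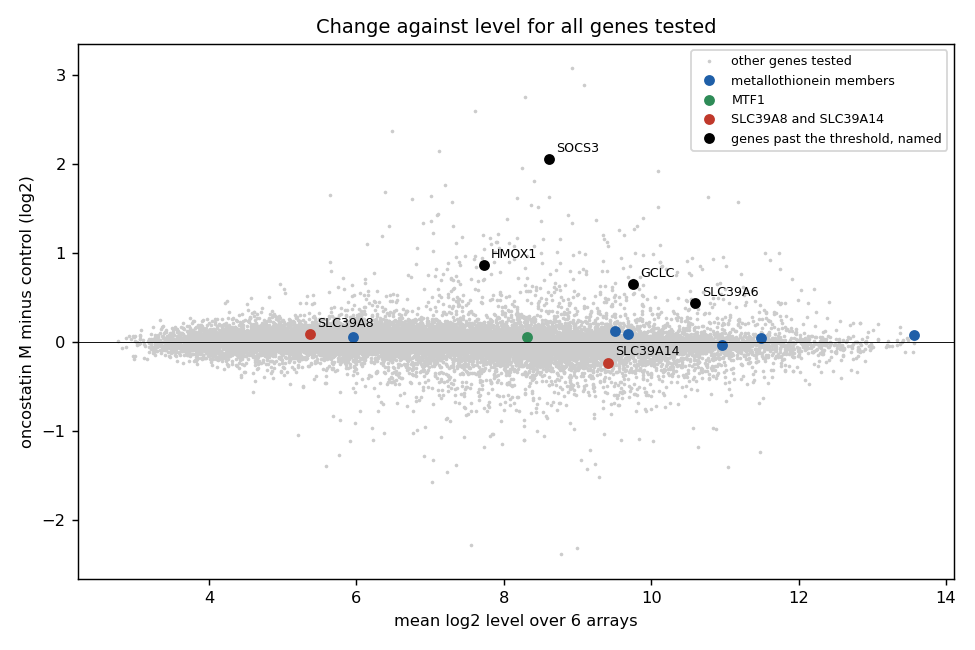
Change (oncostatin M minus control, log2) against mean log2 level over the 6 arrays for 18417 genes. Grey points are all other genes, blue the 6 metallothionein members, green MTF1, red SLC39A8 and SLC39A14, and black 4 named genes past the threshold. The coloured points lie near 0 from the low level of SLC39A8 to MT2A at the right edge, while SOCS3, HMOX1, GCLC and SLC39A6 lie above.

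The genes whose pattern over the 6 arrays was most like the mean metallothionein profile were sought among 306 genes with a range of at least 1 (log2). By Pearson correlation they were IL13RA2 (0.936), PTGR1 (0.931), NCAM2 (0.926), HERC4 (0.924) and DTX3L (0.924). All 5 were higher after oncostatin M, by 0.67 to 1.61, whereas the profile itself spans 0.097. The profile was higher on every treated array, so genes this like it had to be higher after oncostatin M. The correlation reflects the order of 6 arrays that share 1 group split and is given as a description.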

How the data were processed

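The values the authors deposited are log2 expression levels per probe set and array. The submitters' processing notes name RMA and Affymetrix Expression Console 1.1. Settings and genome build are not given in the sources used here. For that reason no gene coordinates are printed except those of RefSeq promoters. RMA aims to make the arrays' distributions alike, so changes are relative to other genes. The medians of the deposited values still ran from 6.536 on oncostatin M 2 to 6.663 on oncostatin M 1. Of 33297 probe sets, 19460 had exactly 1 symbol, 1754 several and 12083 none. No array columns were identical.

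The group was the only term of the model (lmFit and eBayes of limma 3.58.1, R 4.3.3, two-sided tests over 18417 genes, no filter on dim genes). In a simulation of this comparison (18417 genes, 200 of them changed) the model called 0% of log2 changes of size 0.25, 48% at 0.5, 84% at 1 and 98% at 2. More genes than those 200 were called in the data (630), so the Benjamini-Hochberg cut-off can be stricter in the simulation. Each gene's noise was drawn alike on all arrays, and the shares are over genes of every spread. They therefore do not describe the metallothionein members, whose SEs were smaller than those of most genes. Groups and replicate numbers came from the labels. Named genes are the 10 members, genes of each fixed list past the threshold (or the 2 largest changes where none passed), and the 5 most alike; SLC39A10, SLC39A13 and SLC39A1 were added after their values were seen. Members and lists were chosen with earlier results of these data known. Alternatives covered normalization, probe sets, dim filters, array weights, the variance prior, a stricter threshold, a replicate block and each array left out. Figures were drawn with matplotlib 3.10.9.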

Additional observations from a re-analysis of the deposited data

How the results depend on the processing

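Of 140 values of the 9 measured genes under 16 alternatives, 138 kept their direction and their side of the threshold. The exceptions were MTF1, which ran from -0.015 to 0.15 with 1 array left out, and SLC39A14, which passed with array weights, so that 1 of the 9 genes was called there. The count of the 9 called was 0 whichever array was left out. The count with groups apart ran from 3 to 6 with 1 array left out and was 2 with median centring. With quantile normalization 2 other SLC39 importers and 2 MTF1-linked genes were called, SLC39A10 being the addition to both. Under 6 alternatives added for the lists after seeing the data, array weights called 3 other SLC39 importers (SLC39A6, SLC39A10 and SLC39A13), 1 SLC30 exporter (SLC30A1), 4 MTF1-linked genes and 3 genes of iron, copper and manganese handling (SLC40A1, STEAP2 and ATP7A). The trended, robust prior called 3 other SLC39 importers and 2 MTF1-linked genes, and the replicate block and the threshold of 0.01 called 0 other SLC39 importers. SLC30A2 turned to -0.040 with array weights. With 1 array left out, called genes ran from 0 to 2 among other SLC39 importers, 0 to 1 among SLC30 exporters, 1 to 4 among MTF1-linked genes and 0 to 2 among genes of iron, copper and manganese handling, each highest without oncostatin M 1. Deviations from the group means of same-numbered arrays had correlations of 0.064, -0.46 and 0.51 over the genes tested. So few values cannot decide whether the numbers pair the samples, and the labels do not say. With the replicate block 478 genes were called in place of 630, SLC39A6 did not pass (adjusted p = 0.0649), and no member was called. Over all genes, 706 were called with quantile normalization, 864 with the trended, robust prior, 1277 with array weights and 287 at threshold 0.01. Without oncostatin M 1 the count was 732. Array weights gave oncostatin M 1 the lowest weight (0.226), so that setting overlaps with leaving it out. Median centring moved the median of all genes by less than 0.1. Signal within the range of silent genes limits MT1M and SLC39A8.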
